A study of Mus musculus with 2 samples.

Results

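The costimulatory and checkpoint receptors of T cells were described here through 9 genes: Cd28 and Icos, whose products deliver activating signals; Ctla4, Pdcd1, Lag3, Havcr2 and Btla, whose products restrain T cells; and Cd274 and Cd200, which encode ligands of inhibitory receptors. They were chosen by name, and every probe set that the platform annotation assigns to exactly 1 gene, that gene being one of the 9, was taken. This gave 12 probe sets of 34945 with a single gene name, for 9 of 18193 genes. The genes were measured on Affymetrix mouse arrays in regulatory T cells (Tregs), Foxp3-expressing CD4+ T cells that suppress immune responses. 1 array held RNA of Tregs from mice that carry a TGF-beta receptor II with dominant negative action (labelled DNR), and 1 array held RNA of Tregs from wild-type (WT) mice. Both came from spleens of animals on the C57BL/6 background at 10 weeks of age, without treatment, and the cells were sorted by flow cytometry as CD4+Foxp3+. The promoter and cell types that drive the DNR receptor, the number of mice behind each RNA and the way Foxp3 was detected are unknown here. The sorting protocol recorded for the WT sample names DNR mice, as that of the DNR sample does, while title, source and genotype of the sample say wild type; the groups follow the genotype.

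T cells respond fully to antigen only with a further signal from costimulatory receptors. CD28 binds CD80 and CD86 on antigen-presenting cells and recruits phosphoinositide 3-kinase, and ICOS does the same after binding ICOS ligand. CTLA-4 binds the same ligands as CD28 with higher affinity and removes them from the presenting cell, a main way in which Tregs suppress. PD-1, encoded by Pdcd1, recruits the phosphatase SHP-2 when it meets PD-L1, encoded by Cd274, or PD-L2, encoded by Pdcd1lg2. LAG-3 binds MHC class II, TIM-3, encoded by Havcr2, binds ligands such as galectin-9, BTLA binds HVEM, and CD200 binds its receptor on myeloid cells and on some T cells.

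Each genotype had 1 array, so differences were not tested, and every ratio below lacks a replicate check. Values are MAS5 signals on a linear scale, and ratios are DNR over WT. A floor at a signal of 110.9, the DNR median, replaced lower values, and a difference was described as large from 2-fold upwards. This floor was passed by 11094 of 18193 genes on the DNR array, 10114 on the WT array and 9281 on both. Genes above it on a single array were therefore more often above it on the DNR array. The arrays had medians of 110.9 (DNR) and 91.0 (WT) and a common trimmed mean of 500.0. All 18 hybridisation spike-ins were brighter on the DNR array, with a median ratio of 1.95, as were 20 of 24 poly-A spike-ins, with a median ratio of 1.30. The ratio of the 3′ to the 5′ control probe set, which grows as RNA is degraded or shortened, was 2.28 (DNR) and 2.07 (WT) for Gapdh and 6.31 (DNR) and 4.98 (WT) for beta-actin. Tgfbr2, the gene that the genotype concerns, had signals of 5457 (DNR) and 8193 (WT); whether its probe sets detect the transgene is not known, so they do not check the label. On both arrays all 6 T cell markers and all 5 Treg markers were above the floor. Foxp3 had signals of 4550 (DNR) and 3754 (WT), and Cd3e 4388 (DNR) and 4668 (WT). The Treg markers include Ctla4, itself among the genes described. Of 11 macrophage and monocyte markers 8 were above the floor on both arrays too, so passing it is a weak check of the labelled cell type. Fewer cells of a type and less RNA per cell cannot be told apart in such bulk samples.

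Among the 9 genes, Cd274 was past 2-fold, the difference of Havcr2 is known only as a lower bound of 1.84-fold, and the others differed little. All 9 were above the floor on at least 1 array, 8 of them on both. Cd274 was at least 2-fold higher in DNR Tregs, and no gene was at least 2-fold lower. Over all 11927 measured genes, 4.00% were at least 2-fold higher and 2.93% at least 2-fold lower. The signal mattered for this share: of 4363 measured genes with a mean signal of at least 1000, 1.17% were at least 2-fold higher and 1.01% at least 2-fold lower, and 1 of the 6 checkpoint genes in that range, Cd274, was. The median log2 ratio was 0.29 over the 9 genes and 0.01 over all measured genes. On both arrays 11 probe sets exceeded the floor, and 8 of them were higher in DNR Tregs, against a background of 47.5% of named probe sets. The 8 include every probe set of Icos, so they do not stand for 8 separate genes. Apart from Cd274, none of these 11 differed by more than 1.37-fold. The only error the arrays hold is how far probe sets of a gene disagree. Over 3968 genes its robust SD was 0.34 on the log2 scale, or 1.27-fold, and 7 of the 11 ratios were smaller than that.

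**Figure D1:**
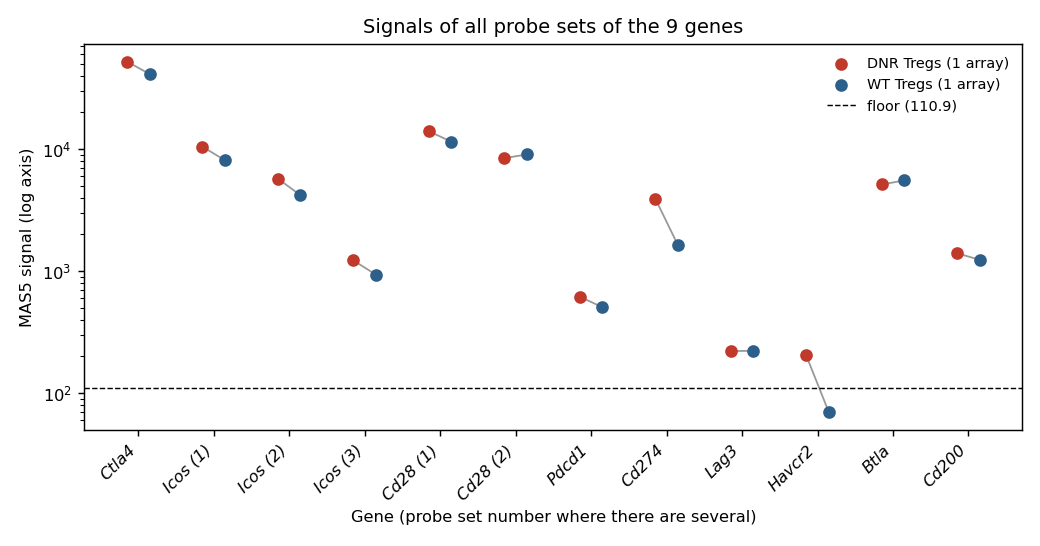
MAS5 signal (vertical log axis) of each of the 12 probe sets on both arrays (red for DNR, blue for WT), with the floor of 110.9 as a dashed line and numbers after a name where a gene has several probe sets. Cd274 shows the steepest step between arrays above the floor (3929 in DNR against 1633 in WT Tregs), and Havcr2 is the only gene with an array below the floor.

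The proximal promoters of 3 genes are shown first, because these genes share a sequence match and cover the range of ratios: Cd274, which was higher in DNR Tregs, Ctla4, which differed slightly, and Btla, which was nearly equal. The windows run from 250 bases before to 50 bases after the annotated start (RefSeq, GRCm38.p6, 5′ to 3′ on the gene's own strand). Capitals mark matches to any of the motifs named after them.
Cd274, chr19:29367188-29367487, plus strand: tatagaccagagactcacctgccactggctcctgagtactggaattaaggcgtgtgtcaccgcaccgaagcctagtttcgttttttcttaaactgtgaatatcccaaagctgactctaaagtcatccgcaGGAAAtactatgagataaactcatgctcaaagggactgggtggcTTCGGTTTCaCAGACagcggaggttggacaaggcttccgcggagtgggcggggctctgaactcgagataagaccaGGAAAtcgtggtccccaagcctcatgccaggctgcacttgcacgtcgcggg
Ctla4, chr1:60908775-60909074, plus strand: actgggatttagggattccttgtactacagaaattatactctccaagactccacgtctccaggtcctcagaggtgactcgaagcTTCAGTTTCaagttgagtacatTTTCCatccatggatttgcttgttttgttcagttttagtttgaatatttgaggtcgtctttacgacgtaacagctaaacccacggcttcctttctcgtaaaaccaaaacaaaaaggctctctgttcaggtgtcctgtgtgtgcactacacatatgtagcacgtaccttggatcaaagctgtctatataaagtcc
Btla, chr16:45224087-45224386, plus strand: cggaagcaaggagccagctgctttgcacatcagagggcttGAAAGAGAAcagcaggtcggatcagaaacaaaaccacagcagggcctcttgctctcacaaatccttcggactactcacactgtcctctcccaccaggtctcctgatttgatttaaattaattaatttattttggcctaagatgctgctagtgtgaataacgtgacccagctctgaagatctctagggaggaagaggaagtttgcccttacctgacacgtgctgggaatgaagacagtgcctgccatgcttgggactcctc

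Windows were present for 6 of the 9 genes, the 3 above and Pdcd1, Havcr2 and Cd200. Each was searched on both strands for the letters of 6 motifs. The core of the element bound by interferon regulatory factors, GAAANNGAA, was found in 3 of the 6 windows (Cd274, Ctla4 and Btla) and in 8.56% of 32851 promoter windows of the same length. In the Cd274 window it reads TTCGGTTTC on the printed strand and begins 76 bases before the start; in the Ctla4 window it begins 166 bases and in the Btla window 210 bases before it. The SMAD-binding letters CAGAC, recognised by the transcription factors of the TGF-beta pathway, were found in 4 of the 6 windows (Cd274, Pdcd1, Havcr2 and Cd200) and in 49.6% of all windows. In the Cd274 window they begin 66 bases before the start, next to the interferon regulatory factor match without overlapping it. The NFAT core GGAAA was found in 3 of the 6 windows (Cd274, Ctla4 and Pdcd1) and in 61.3% of all. The AP-1 letters TGANTCA were found in Havcr2 alone of the 6 and in 7.81% of all windows. The STAT element TTCNNNGAA and the T-box letters AGGTGTG were found in 0 of the 6 and in 8.30% and 5.84% of all windows. These matches describe the letters of short windows and show no binding, and a relation between matches and ratios was not tested.

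The activating receptors were slightly higher in DNR Tregs by most of their probe sets. On the brightest probe set of Cd28 the signal was 13979 for DNR and 11471 for WT Tregs, 1.22-fold higher. Its other probe set had 8420 in DNR against 9020 in WT Tregs, 1.07-fold lower, so the probe sets of Cd28 point in opposite directions by less than the disagreement usual for a gene. Icos is the only one of the 9 genes with 3 probe sets, and all of them were higher in DNR Tregs. Their signals were 10458 in DNR against 8074 in WT Tregs, 5716 in DNR against 4177 in WT Tregs, and 1221 in DNR against 933 in WT Tregs. The corresponding ratios were 1.30, 1.37 and 1.31, each just above 1 robust SD. The probe sets of Icos were thus alike in direction, at a size well below 2-fold. Only Cd28 can be compared with it in this respect, since 7 of the 9 genes have 1 probe set.

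Ctla4, Icos and Cd28 lie side by side on mouse chromosome 1, with 0 other protein-coding genes between neighbours in the RefSeq annotation of GRCm38.p6. The single probe set of Ctla4 had a signal of 52119 in DNR against 41217 in WT Tregs, a ratio of 1.26 (log2 0.34), about 1 robust SD. The brightest probe sets of the 3 neighbours thus had ratios between 1.22 and 1.30. A common scaling factor cancels when the ratios of genes are set against each other. By this measure Ctla4 was 1.04-fold higher than Cd28 in DNR relative to WT Tregs, and Icos 1.06-fold higher than Cd28. Relative to Foxp3, itself 1.21-fold higher, Ctla4 was 1.04-fold and Icos 1.07-fold higher. On these probe sets the inhibitory Ctla4 and the activating Cd28 transcript thus kept nearly the same ratio to each other in both samples. On its other probe set Cd28 was 1.07-fold lower while Ctla4 was 1.26-fold higher, so this near equality depends on the probe set.

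The other inhibitory receptors did not share a direction. Pdcd1 had a signal of 616 in DNR against 505 in WT Tregs, 1.22-fold higher and within 1 robust SD. Btla, which is unusual in binding a member of the TNF receptor family, had 5119 in DNR against 5525 in WT Tregs, 1.08-fold lower. Lag3 had 220 in DNR against 222 in WT Tregs, a log2 ratio of -0.01 at only 1.99 (DNR) and 2.0 (WT) times the floor. A signal so close to the floor gives little room to see a lower level. Lag3 is the direct neighbour of Cd4, a relative of similar structure, on chromosome 6, and Cd4 had 415 in DNR against 595 in WT Tregs, 1.43-fold lower.

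Havcr2, the gene of TIM-3 and a marker of strongly activated T cells and of myeloid cells, was above the floor on the DNR array alone. Over all genes, too, more passed the floor on the DNR array (11094) than on the WT array (10114). The signal of Havcr2 was 204 in DNR Tregs and 69.6, under the floor, in WT Tregs. It was thus at least 1.84-fold higher, and the size of the difference is unknown. The bound was 0.88 on the log2 scale. It passed 2-fold when the floor was lowered to the 40th percentile (1.44) or dropped (1.55), and a floor at the 60th percentile gave 0.28. The gene rests on 1 probe set at a low signal.

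Cd274, the gene of PD-L1, had a signal of 3929 in DNR against 1633 in WT Tregs. This is 2.41-fold higher (log2 1.27), or 3.73 robust SDs of a single probe set, and 186 of the 11927 measured genes had a larger ratio. Both signals were well above the floor, at 35.4 (DNR) and 14.7 (WT) times its value. The log2 ratio was 1.31 with median scaling and 1.29 with quantile normalization. The other settings changed the floor or the choice of probe sets and left it at 1.27. They could not move it, because Cd274 has only 1 probe set, which every setting keeps, with both signals well above each floor. Relative to the other genes above the floor on both arrays, Cd274 was between 1.86-fold (Icos) and 2.60-fold (Btla) higher. Cd200, the other ligand gene, had 1399 in DNR against 1233 in WT Tregs, 1.13-fold higher and within 1 robust SD. It is the next protein-coding gene to Btla on chromosome 16, and neither of these neighbours differed by more than 1.13-fold.

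**Figure D2:**
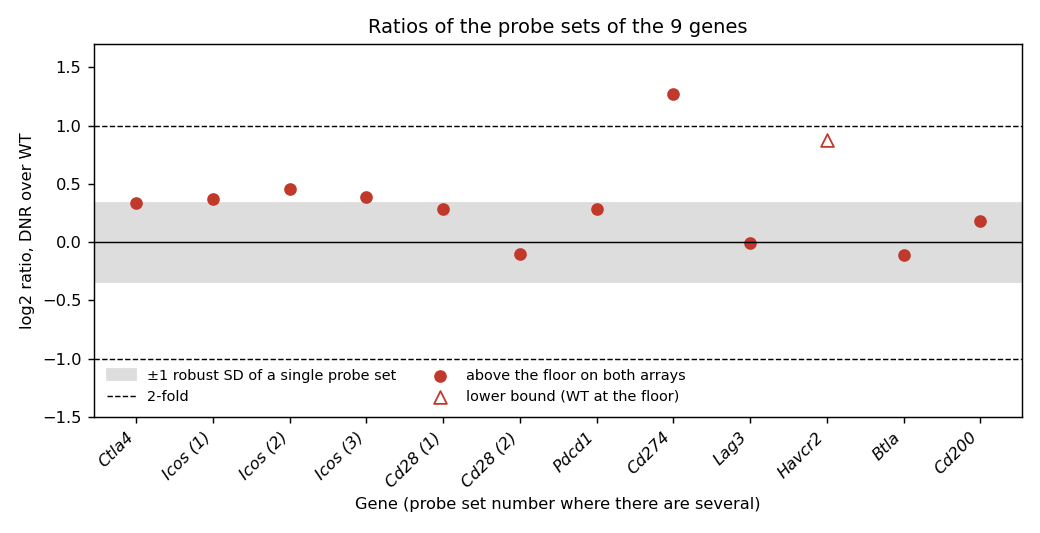
Log2 ratio of DNR over WT (vertical axis) for each of the 12 probe sets, with the grey band at 1 robust SD (0.34) on either side of 0 and dashed lines at 2-fold. Cd274 (1.27) lies beyond the line, Havcr2 (0.88, open triangle) is a lower bound, the 3 Icos probe sets lie just above the band, and Lag3, Btla and Cd200 lie within it.

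Cd274 and Havcr2 are also expressed by myeloid cells, so markers of other cells were set beside them. Of 11 macrophage and monocyte markers 8 were measured, all 8 lower in DNR Tregs, against 5794 of all 11927 measured genes. Summed signals over the list were 4032 (DNR) and 5910 (WT). Csf1r, the receptor that defines the lineage, had 1449 in DNR against 1799 in WT Tregs, and Cd14 was under the floor on both arrays. Of the 8 measured, 3 were at least 2-fold lower, against 2.93% of all measured genes. C1qb was nearly equal (641 in DNR against 652 in WT Tregs), and Adgre1 (log2 -0.12) and Csf1r (log2 -0.31) were within 1 robust SD. Of the 6 dendritic cell markers with a probe set, 3 exceeded the floor in DNR and 1 in WT Tregs, with summed signals of 740 (DNR) and 1055 (WT). The lower sum came from Ccr9 (356 in DNR against 810 in WT Tregs), which T cells can also express, while Itgax and Siglech were higher in DNR Tregs at signals near the floor, and Flt3 and Xcr1 were under the floor on both. Of 7 neutrophil markers with a probe set 4 were measured, 3 of them at least 2-fold higher, against 4.00% of all measured genes. S100a8 (285 in DNR against 47.1 in WT Tregs) and Ngp (287 in DNR against 37.7 in WT Tregs) exceeded the floor on the DNR array alone. Their ratios are therefore lower bounds. Mmp9 was above the floor on both arrays (537 in DNR against 184 in WT Tregs), and Elane was lower (173 in DNR against 238 in WT Tregs). Summed neutrophil signals were 1399 (DNR) and 631 (WT), and S100a9, Mpo and Camp were under the floor on both arrays. The part of macrophages, dendritic cells or neutrophils in the Cd274 and Havcr2 values was not tested. Of 7 B cell markers with a probe set 4 were measured, 2 higher and 2 lower. Cd79b was above the floor on both arrays (869 in DNR against 666 in WT Tregs), and Cd79a and Pax5 were under the floor on both arrays. CD8 T and NK cell markers had summed signals of 1077 (DNR) and 900 (WT) over 6 genes, and of 3 erythroid markers only Klf1 was measured, just above the floor on the DNR array (116 in DNR against 7.92 in WT Tregs). T follicular helper cells carry much Icos, Pdcd1, Btla and Cd200, and of their 7 markers 4 were higher and 3 lower. Il21 was at least 2.07-fold higher (230 in DNR against 70.5 in WT Tregs), and Il4 also exceeded the floor on the DNR array alone. Sh2d1a had 4165 (DNR) and 2868 (WT) and Cxcr5 1500 (DNR) and 1192 (WT). Pou2af1 (159 in DNR against 234 in WT Tregs) and Tox2 (948 in DNR against 1047 in WT Tregs) were lower, while the probe sets of Bcl6 disagreed in direction. The median log2 ratio of the list was 0.30, and -0.14 over the markers above the floor on both arrays.

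The ligands and counter-receptors of the 9 genes split in direction. Of 10 genes 6 were measured, 3 higher and 3 lower, with a median log2 ratio of 0.14. Without Icosl, whose ratio is a bound, the median turned to -0.23. Pdcd1lg2, which encodes PD-L2 and follows Cd274 on chromosome 19, had 1165 in DNR against 804 in WT Tregs, 1.45-fold higher. Cd200r1, the receptor of CD200, had 689 in DNR against 345 in WT Tregs, just under 2-fold (1.996-fold), and its other probe set was 1.22-fold higher. Cd86, a ligand shared by CD28 and CTLA-4, had 905 in DNR against 1241 in WT Tregs, 1.37-fold lower, and 1.20-fold lower on its other probe set. Lgals9, the gene of galectin-9, was the only one at least 2-fold lower, with 187 in DNR against 473 in WT Tregs (2.53-fold). The gene has 1 probe set, of the kind that may bind several transcripts. Icosl was above the floor on the DNR array alone (158 in DNR against 78.2 in WT Tregs), at least 1.43-fold higher.

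Other co-receptors of the immunoglobulin and SLAM families showed small ratios. Of 17 genes 13 were measured, 7 higher and 6 lower, with a median of 0.07, and 3 of the list, among them Tigit, have no usable probe set. Slamf1, a self-binding costimulator, had 4306 in DNR against 2924 in WT Tregs, 1.47-fold higher, with both other probe sets higher by less. Slamf6 was 1.34-fold higher, and its other probe sets were 1.15-fold and 1.08-fold higher. Ly9, another SLAM receptor, was 1.45-fold lower (916 in DNR against 1325 in WT Tregs), and Cd6, which dampens T cell receptor signals, was 1.30-fold lower. Lair1, an inhibitory receptor for collagen, was the only one past 2-fold, at least 2.96-fold higher (328 in DNR against 85.9 in WT Tregs). A different probe set of Lair1 was lower in DNR Tregs (log2 ratio -0.55), so its direction is uncertain.

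Genes that act below these receptors were mostly near equal. Of 24 signalling genes 21 had a probe set and were measured, 8 higher and 13 lower, with a median of -0.10. Malt1, the protease that carries the CD28 signal to NF-kappaB, was the only one at least 2-fold different. Its 3 probe sets had ratios of 2.09, 1.84 and 2.07, with signals of 3018 in DNR against 1447 in WT Tregs on the brightest. Of the phosphoinositide 3-kinase subunits, the regulatory Pik3r1 was lower on all 4 of its probe sets (1503 in DNR against 2609 in WT Tregs on the brightest, 1.74-fold). The catalytic Pik3cd was 1.42-fold higher on its brightest probe set, 31190 in DNR against 21935 in WT Tregs, 1.07-fold and 1.22-fold higher on others, and at least 1.88-fold lower on a probe set that was under the floor in DNR Tregs. The adaptor gene Grap2 was 1.62-fold lower near the floor. Grb2, another adaptor gene, was 1.51-fold higher on its brightest probe set and 1.45-fold lower on the other.

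Genes of receptor trafficking and shedding all differed by less than 2-fold. All 10 were measured, 5 higher and 5 lower, from -0.40 to 0.34 on the log2 scale. Trat1, an adaptor that helps CTLA-4 reach the cell surface, was 1.27-fold higher on both of its probe sets. Def6, an exchange factor for small GTPases, was 1.32-fold lower, Lax1, a membrane adaptor, 1.24-fold lower, and Rab11a, a GTPase of recycling endosomes, 1.23-fold higher on both probe sets. Adam10, a protease that sheds LAG-3 and TIM-3, had 6824 in DNR against 5922 in WT Tregs on its brightest probe set, 1.15-fold higher, while its other probe sets went both ways.

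Transcription factors known to act on the 9 genes formed a list that was chosen with earlier results of these data known. Of its 18 genes 3 were at least 2-fold higher, against 4.00% of all measured genes, and 0 at least 2-fold lower, against 2.93%. Their median was -0.03. Where all probe sets of a gene entered through their median, 2 were at least 2-fold higher, without Maf, and the list median was 0.26. Tbx21 (T-bet), which acts on Pdcd1 and Havcr2, had 731 in DNR against 283 in WT Tregs, 2.59-fold higher. Prdm1 (Blimp-1), a factor of effector T cells, had 690 in DNR against 277 in WT Tregs, 2.49-fold higher. Maf was 2.22-fold higher (8586 in DNR against 3875 in WT Tregs), and each of its other 4 probe sets above the floor was higher too. Tox, a factor tied to sustained Pdcd1 expression in other T cells, was 1.76-fold higher on its brightest probe set and 1.62-fold lower on another. Bcl6 was 1.67-fold lower on its brightest probe set and 1.75-fold higher on its other.

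**Figure D3:**
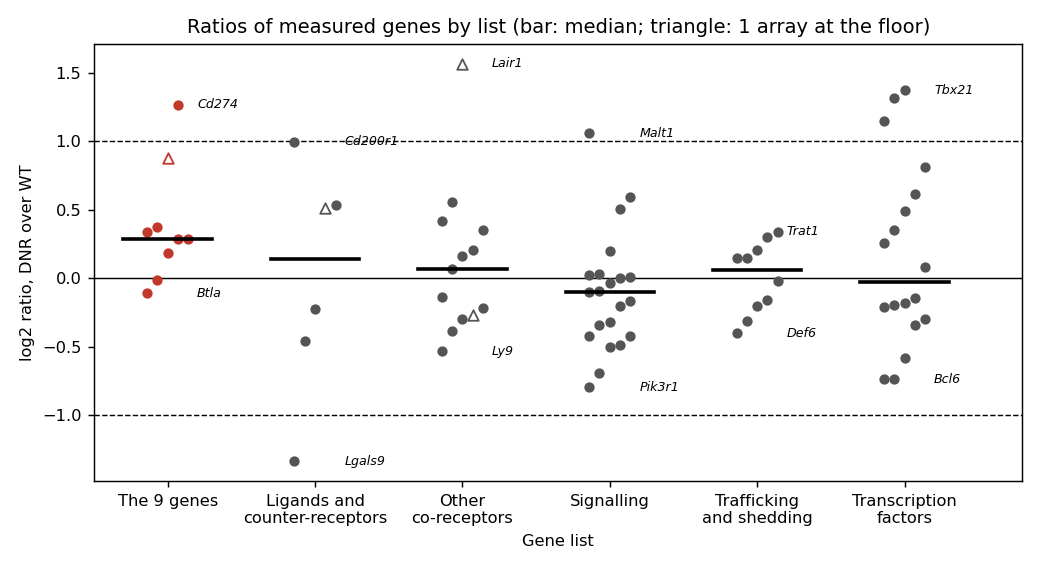
Log2 ratio of DNR over WT (vertical axis) of each measured gene, by list along the horizontal axis; bars are list medians, dashed lines mark 2-fold, and open triangles are genes with 1 array at the floor. Cd274 (1.27) lies above the rest of the 9 genes, whose median is 0.29, and Malt1, Tbx21, Prdm1 and Maf are the genes past the upper line that were above the floor on both arrays in the other lists drawn.

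**Figure D4:**
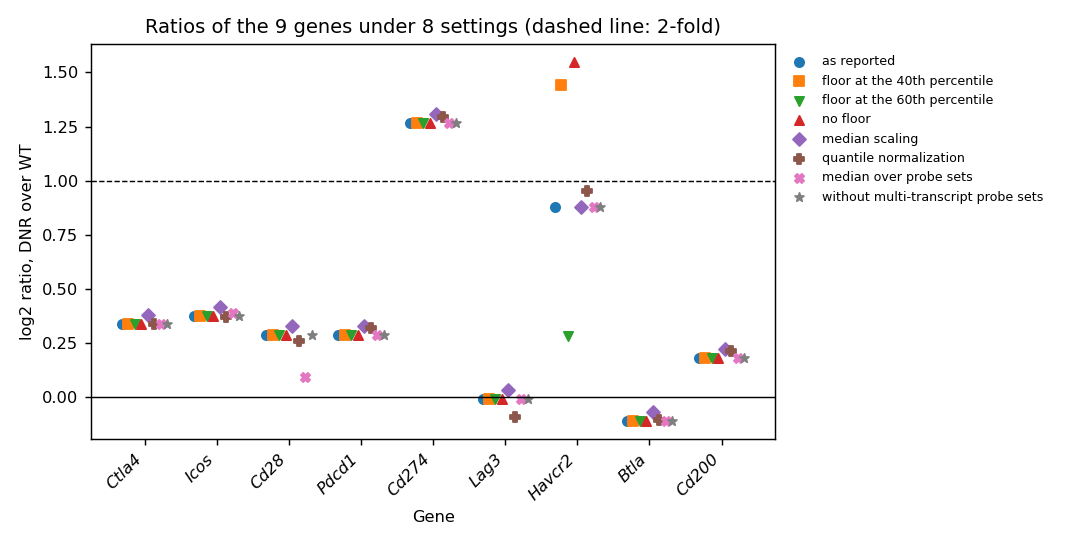
Log2 ratio of DNR over WT (vertical axis) of each of the 9 genes under 8 settings of floor, scaling and probe set choice, 1 symbol per setting. Cd274 lies between 1.27 and 1.31 and could move only with the scaling. Havcr2 moves between 0.28 and 1.55 with the floor, and Lag3 lies on both sides of 0 (-0.09 to 0.03).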

How the data were processed

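RNA of sorted splenic Tregs was hybridised to 1 array per genotype. The deposited table holds a signal intensity per probe set, which the authors computed with MAS5, per the submitters' processing notes; version and scaling target are not stated there. Equal means after trimming 2% at each end (500.0) show a common scaling. Of 45101 probe sets 64 controls were set aside. Of the other 45037, 34945 had 1 gene, 932 several and 9160 were not listed in the platform annotation; symbols were looked up by Entrez identifier, and 0 changed. Values below the floor were set to it before log2. The probe set brightest on average stood for its gene, which counted as measured if that probe set exceeded the floor on either array.

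Probe sets whose names end in _s_at, _x_at or _a_at were taken as able to bind several transcripts. The robust SD was 1 number for all genes, from probe sets of the same gene; variation between mice, sorts or hybridisations is not in it, and the number of arrays limits precision. The members, lists and settings were chosen with earlier results of these data known. Named were all members, up to 5 measured genes per list with the largest ratios, and Foxp3, Cd3e, Cd4, Il2ra and Tgfbr2; other list genes named as cell markers were chosen after their values were seen. Il2ra had 3969 in DNR and 4591 in WT Tregs. The calling step was tested on simulated data, with planted differences larger than that of Cd274 in genes well above the floor. That test does not show how often differences near 2-fold or near the floor are found. Python 3.11.15 and pandas 2.3.3 were used.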

Additional observations from a re-analysis of the deposited data

How the results depend on the processing

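The count of the 9 genes at least 2-fold higher in DNR Tregs was 1 as reported, and its changes follow from the position of Havcr2 against the floor and the threshold or of Cd274 against the threshold. Lowering the floor to the 40th percentile gave 2, leaving it out gave 2, and a threshold of 1.5-fold gave 2, with Havcr2 added; a threshold of 3-fold gave 0. It stayed 1 under the other 5 settings, namely a floor at the 60th percentile, median scaling, quantile normalization, the median of all probe sets of a gene, and probe sets specific to a single transcript only. The count of genes at least 2-fold lower was 0 in every setting run, and the median of the 9 genes stayed between 0.29 and 0.33. Over all genes, 477 were higher and 350 lower as reported; the numbers became 1026 and 550 for the 40th percentile, 250 and 246 for the 60th, and 3617 and 2655 if no floor was set. Lair1 reversed to -0.55 when only specific probe sets were kept. Its brightest probe set was then dropped, and the next brightest (14.6 in DNR against 162 in WT Tregs) stood for the gene. Why these probe sets differ was not tested. No paired analysis was possible because there is 1 array per group and no test. Other background corrections, detection calls and a scan batch were not run, since only processed signals were used.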
